A study of Mus musculus with 12 samples.

Results

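The comparison described here is the activation of central regulatory T (cTreg) cells that remained while the mTOR inhibitor PP242 was present: stimulated cTreg cells treated with PP242 against unstimulated cTreg cells, across all genes measured. It uses 6 of the 12 arrays of the series, all 3 of each group, and 22180 genes, each represented by the transcript cluster with the highest mean among those that carry its symbol alone. The groups were fixed by the sample labels and no gene was selected by its level. Cells of Foxp3-YFP+ transgenic mice backcrossed to C57BL/6, in which the yellow fluorescent protein marks Foxp3-expressing cells, were sorted as CD4+ YFP+ CD44lo cells, with 1 further surface marker in the gate, from spleen and peripheral lymph nodes. The PP242 group was stimulated for 20 h with anti-CD3 and anti-CD28 antibodies and recombinant IL-2 in 500 nM PP242. The other stimulated groups, of 3 arrays each, received the same 20 h stimulation with the vehicle DMSO or with 50 nM Torin 1, and the unstimulated group is labelled as 0 h with DMSO. A 20 h culture without antibodies was not among the groups, so stimulation cannot be told apart from 20 h of culture with IL-2. The labels do not say whether replicates came from separate animals, so p-values measure the spread between these samples.

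T cell receptor (TCR) engagement raises immediate-early transcription factors through calcium, MAPK and NF-kappaB signaling within the first hours, and later a growth program of ribosome synthesis, metabolism and DNA replication. The kinase mTOR, in the complexes mTORC1 and mTORC2, couples antigen, cytokine and nutrient signals to that growth program. PP242 and Torin 1 both compete with ATP at the mTOR kinase site and so inhibit both complexes. Effector Treg cells, which differ from cTreg cells by high CD44, depend on the transcription factor IRF4.

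The labelled cell type was borne out by its markers. Foxp3 was at 11.73, 11.62 and 11.61 on the log2 scale with PP242 and at 11.95, 11.95 and 11.99 in unstimulated cells. The arrays did not overlap, but the difference of -0.31 did not pass the test (adjusted p = 0.0902). Over all genes, the PP242 arrays lay wholly above the unstimulated arrays for 8% and wholly below them for 10.8%. Il2ra, encoding CD25, averaged 11.93 with PP242 and 11.88 in unstimulated cells, and Cd4, Cd3e, Ctla4, Ikzf2 and Tnfrsf18 all had group means of 8.38 or more, against a median of 5.01 over all clusters and arrays, under which a group mean is called dim here. Of the markers of other cells, 6 of 9 for CD8 T and NK cells, 5 of 9 for B cells, 6 of 13 for monocytes, macrophages and dendritic cells and 6 of 10 for neutrophils and mast cells were dim in all groups. Only Cd8b1 was called in the comparison (change -0.66, adjusted p = 0.0238), and its call was lost in 3 of the 12 fits that left out 1 array (adjusted p = 0.111 without PP242 replicate 2). The mean of the B cell markers ran from 4.53 to 4.54 with PP242 and from 4.68 to 4.72 in unstimulated cells. The mean of monocyte, macrophage and dendritic cell markers ran from 4.95 to 5.04 with PP242 and from 5.07 to 5.17 in unstimulated cells, and that of platelet markers from 5.29 to 5.39 with PP242 and from 5.46 to 5.51 in unstimulated cells. Their part in the results was not tested. In RNA of bulk cells, fewer cells of a type and less RNA per cell cannot be told apart.

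With PP242, 384 genes rose and 297 fell relative to unstimulated cells at an adjusted p under 0.05, 3.07% of the 22180 genes tested (1.73% higher and 1.34% lower). Among them, 61 of the rises and 20 of the falls reached 2-fold. In vehicle-treated stimulated cells, which share the unstimulated arrays, 2612 genes rose (11.8%) and 2678 fell (12.1%), 568 and 178 of them at least 2-fold. Between PP242 and DMSO, both stimulated, 1636 genes were higher with PP242 (7.38%) and 2057 lower (9.27%). Counts of list members called with DMSO, or between PP242 and DMSO, are to be read beside these shares. With Torin 1, at its own dose, 980 genes rose and 735 fell. The median change over all genes was -0.02 for PP242 against unstimulated cells, and its lower and upper quartiles were -0.13 and 0.09. Leaving out PP242 replicate 2 or unstimulated replicate 1 lowered the count of rises to 249 or 220, and leaving out PP242 replicate 2 or 3 or unstimulated replicate 1, 2 or 3 lowered that of falls to 148, 151, 178, 137 or 121. The counts of changes of at least 2-fold stayed within 52 to 71 and 14 to 27 over the same fits.

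**Figure D1:**
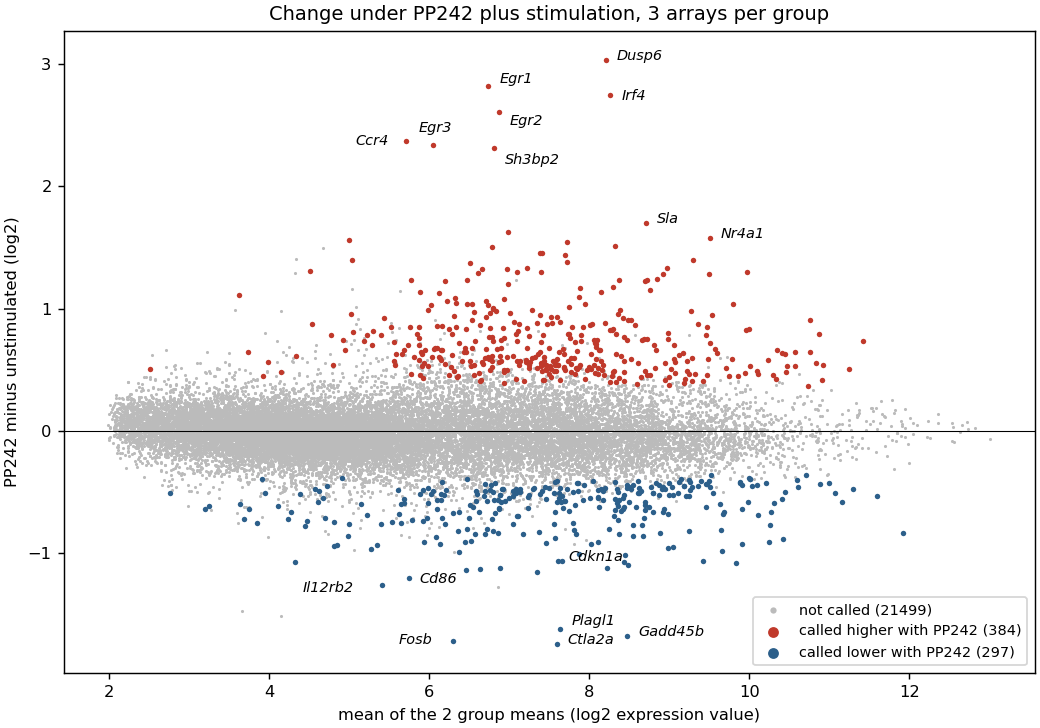
Change of each gene (PP242 minus unstimulated, log2 expression value) against the mean of the 2 group means (log2 expression value), with 3 arrays per group. Red points are the 384 genes called higher with PP242, blue points the 297 called lower and grey points the genes not called, and the named genes at the top are led by Dusp6 at 3.03 and Egr1 at 2.81.

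Early TCR response genes led the rises. Dusp6, a phosphatase that inactivates ERK, was at 9.54, 9.80 and 9.80 with PP242, at 9.54, 9.44 and 9.53 with DMSO, and at 6.45, 7.20 and 6.41 in unstimulated cells. Both stimulated groups lay far above the unstimulated arrays, and the rise with PP242 was 8.15-fold (log2 change 3.03 ± 0.17 SE, adjusted p = 2.57e-07). With the median over its clusters in place of the brighter one, the change was 1.94. Egr1, a zinc finger factor induced by ERK, was at 8.14, 8.09 and 8.20 with PP242, at 7.75, 7.88 and 7.61 with DMSO, and at 5.0, 5.58 and 5.42 in unstimulated cells. It rose 7.03-fold with PP242 (2.81 ± 0.13, adjusted p = 4.25e-08). The 3 PP242 arrays lay above the 3 DMSO arrays, by 0.40, which missed the threshold (adjusted p = 0.057).

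Egr2, which restrains T cell activation, was at 8.14, 8.18 and 8.19 with PP242, at 7.98, 8.16 and 8.06 with DMSO, and at 5.36, 5.40 and 5.95 in unstimulated cells. The PP242 and DMSO arrays overlapped, and the rise with PP242 was 6.08-fold (2.6 ± 0.14, adjusted p = 1.11e-07). Egr3, its relative, was at 7.47, 7.14 and 7.03 with PP242, at 8.08, 8.04 and 7.95 with DMSO, and at 4.62, 5.09 and 4.92 in unstimulated cells, where it was dim. It rose (adjusted p = 7.19e-07) and stayed lower with PP242 than with DMSO (difference -0.81, adjusted p = 0.00156). Nr4a1, the orphan receptor Nur77 that reports TCR signal strength, showed the same order: 10.29, 10.24 and 10.35 with PP242, 11.20, 11.16 and 10.98 with DMSO, and 8.51, 8.85 and 8.81 in unstimulated cells. Its rise with PP242 was 2.97-fold (1.57 ± 0.11, adjusted p = 1.87e-06), and no array of the 3 groups overlapped another group.

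Of the 48 measured early TCR response genes, 19 rose and 10 fell with PP242 (39.6% and 20.8%, against 1.73% and 1.34% of all genes), with a median change of 0.25. With DMSO 28 rose and 9 fell, with a median of 0.64, where 11.8% of all genes rose and 12.1% fell. Other rises included the C-type lectin Cd69, at 10.62, 10.59 and 10.64 with PP242, 10.40, 10.59 and 10.66 with DMSO, and 9.21, 9.24 and 9.5 in unstimulated cells. Its PP242 and DMSO levels interleaved, and it rose 2.46-fold with PP242 (1.30 ± 0.11, adjusted p = 9.5e-06). The MAPK phosphatase Dusp2 rose 2.52-fold (1.33, adjusted p = 9.5e-06) and the mRNA decay factor Zfp36 2.43-fold (1.28, adjusted p = 0.000172). The smallest of the 19 rises was that of Nr4a3 at 0.44.

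The start sites of Egr2 and Zfp36 are shown because these were the only 2 of the 15 early TCR response genes with a called rise and a RefSeq promoter entry whose window (250 bases before a start to 50 after it) held a CArG box, the sequence bound by serum response factor. On either strand this motif was found for 13.3% of those 15 genes and for 1.67% of the 16990 genes tested with an entry. The cyclic AMP response element TGACGTCA was found for 6.67% of the 15 and 2.65% of all, and the AP-1 site TGANTCA for 6.67% and 8.42%. The E-box CACGTG was found for 13.3% (Dusp2 and Egr2) and 9.19%, and the EGR site GCGTGGGCG for 0 of the 15 and 0.983% of all. Neither Egr2 window printed below holds the E-box, which lies in another window of that gene. A match describes the letters only. The windows are of build GRCm38.p6, read 5′ to 3′ on the strand of the gene with the CArG box in capitals: 2 starts of Egr2 at chr10:67537316-67537615 and chr10:67537619-67537918 on the plus strand, and Zfp36 at chr7:28379179-28379478 on the minus strand.
Egr2, first window: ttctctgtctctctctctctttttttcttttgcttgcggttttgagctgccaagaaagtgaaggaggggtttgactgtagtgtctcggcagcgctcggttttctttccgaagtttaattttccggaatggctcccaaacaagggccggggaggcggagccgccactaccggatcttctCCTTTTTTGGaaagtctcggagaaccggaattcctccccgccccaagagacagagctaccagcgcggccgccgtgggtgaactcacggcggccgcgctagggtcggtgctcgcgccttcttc
Egr2, second window: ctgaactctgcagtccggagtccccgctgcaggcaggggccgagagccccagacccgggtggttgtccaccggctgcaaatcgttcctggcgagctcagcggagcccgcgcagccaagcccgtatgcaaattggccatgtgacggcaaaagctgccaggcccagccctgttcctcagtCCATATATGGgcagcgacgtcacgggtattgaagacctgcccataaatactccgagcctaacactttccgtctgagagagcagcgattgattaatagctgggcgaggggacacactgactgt
Zfp36: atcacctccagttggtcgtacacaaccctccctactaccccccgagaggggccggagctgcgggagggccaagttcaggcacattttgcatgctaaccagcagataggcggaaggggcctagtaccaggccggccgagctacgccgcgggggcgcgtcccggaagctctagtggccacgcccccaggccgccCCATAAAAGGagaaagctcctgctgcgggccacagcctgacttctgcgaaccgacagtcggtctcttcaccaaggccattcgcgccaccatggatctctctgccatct

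**Figure D2:**
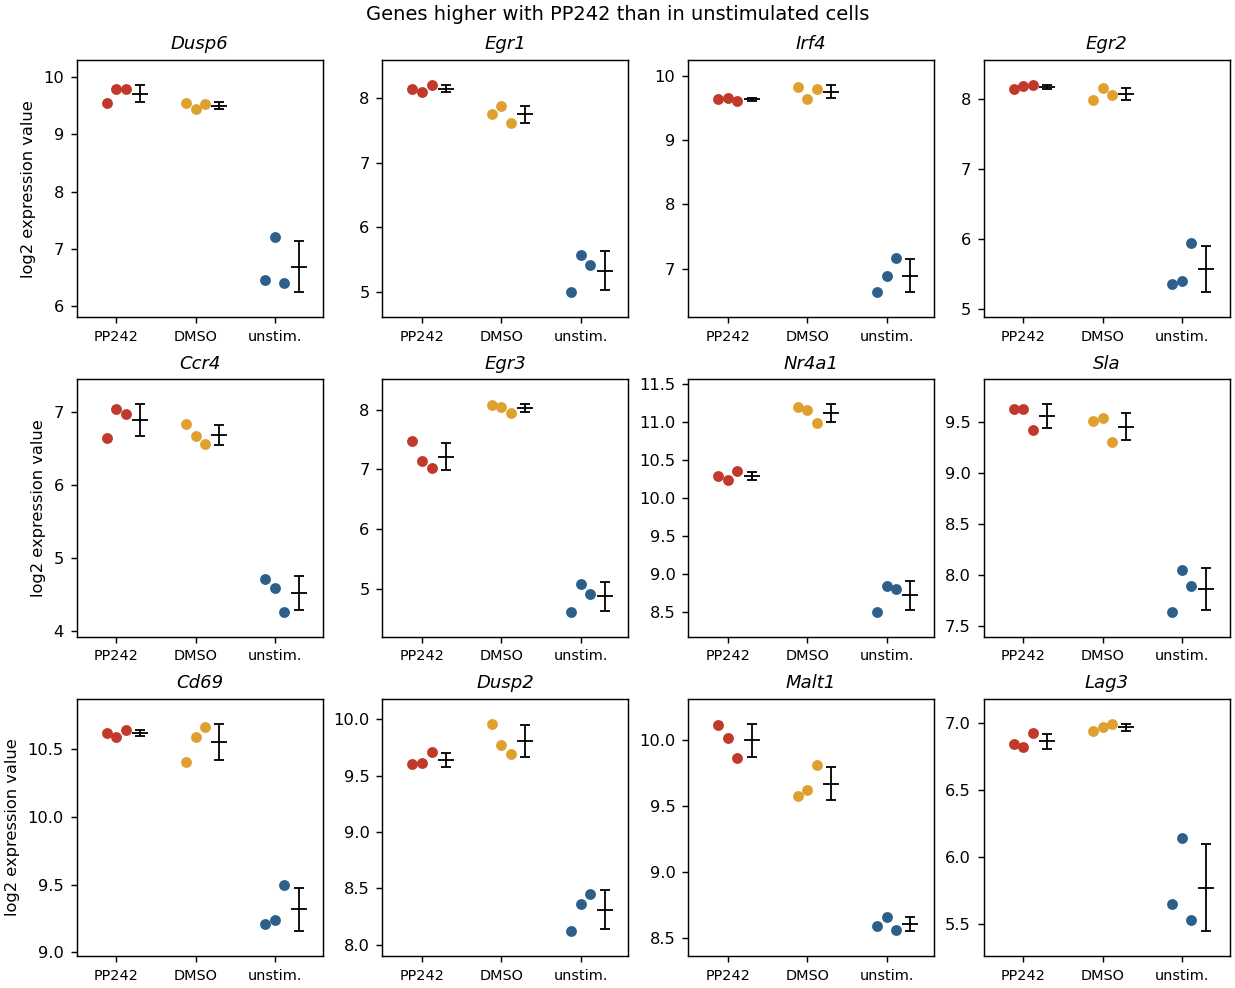
Log2 expression value of 12 genes on each array (points) of stimulated cells with PP242 (red), stimulated cells with DMSO (orange) and unstimulated cells (blue, unstim.), with the mean ± SD of the 3 arrays in black. The PP242 points of all 12 genes lie above the unstimulated points, while those of Egr3, Nr4a1 and Lag3 lie below the DMSO points.

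The 10 early response genes that fell were Fosb, Jun, Rgs2, Tnfaip3, Dusp10, Dusp1, Dusp4, Bhlhe40, Csrnp1 and Nfkbia. Fosb, an AP-1 subunit, was at 5.67, 4.94 and 5.71 with PP242, at 5.99, 5.89 and 5.49 with DMSO, and at 7.32, 7.12 and 7.02 in unstimulated cells. All stimulated arrays lay below the unstimulated ones, and Fosb fell 3.28-fold with PP242 (-1.71 ± 0.20, adjusted p = 0.000256). Jun, its partner in AP-1, was at 9.46, 9.17 and 9.27 with PP242 and at 10.45, 10.28 and 10.39 in unstimulated cells, a 2.11-fold fall (adjusted p = 6.58e-05). Dusp4, a nuclear MAPK phosphatase, went opposite ways in the 2 stimulated groups, at 8.0, 7.95 and 7.93 with PP242, 9.74, 9.57 and 9.42 with DMSO, and 8.65, 8.59 and 8.71 in unstimulated cells. It fell 1.62-fold with PP242 (adjusted p = 0.00167), and its difference between PP242 and DMSO was -1.62 (adjusted p = 5.58e-07). Nfkbia lost its call in 4 of the 12 fits that left out 1 array (adjusted p = 0.0695 without unstimulated replicate 3).

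Proximal TCR signaling had the next highest share of called rises. Of 36 measured genes, 14 rose (Sla, Ubash3b, Cd6, Ptpn6, Cd5, Cd28, Zap70, Lcp2, Trat1, Cd3g, Cd3d, Lat, Fyn and Cd3e) and 1, Txk, fell. These shares were 38.9% and 2.78%, against 1.73% and 1.34% of all genes, and the median change was 0.19. Vehicle-treated cells had 13 rises and 13 falls (median -0.13), and PP242 against DMSO 14 higher and 3 lower (median 0.20). Of all genes 11.8% rose and 12.1% fell with DMSO, and 7.38% were higher and 9.27% lower with PP242 than with DMSO. Sla, an adaptor that lowers TCR levels, was at 9.62, 9.62 and 9.42 with PP242, at 9.51, 9.54 and 9.30 with DMSO, and at 7.64, 8.05 and 7.89 in unstimulated cells. The stimulated groups overlapped, and Sla rose 3.24-fold with PP242 (1.70 ± 0.12, adjusted p = 2.09e-06).

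Zap70, the kinase recruited to the phosphorylated TCR, was at 9.26, 9.02 and 9.21 with PP242, at 9.76, 9.78 and 9.62 with DMSO, and at 8.37, 8.61 and 8.52 in unstimulated cells. PP242 arrays fell between the other groups, with a 1.59-fold rise (adjusted p = 0.00238). Cd28, the costimulatory receptor, rose 1.65-fold with PP242 (0.72, adjusted p = 0.000949) and differed from DMSO by -0.02 (adjusted p = 0.926). The surface receptors Cd6 and Cd5 rose 1.79-fold and 1.74-fold, the phosphatase Ptpn6 (SHP-1) 1.75-fold and the phosphatase Ubash3b, encoding Sts-1, 2.0-fold. Txk, a Tec family kinase, was at 9.99, 9.85 and 9.80 with PP242, 9.23, 9.06 and 8.90 with DMSO, and 10.62, 10.74 and 10.58 in unstimulated cells. It fell 1.7-fold with PP242 (-0.77, adjusted p = 0.00138) and stayed above its DMSO level by 0.81 (adjusted p = 0.00021).

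Of 32 measured effector Treg genes 6 rose (Irf4, Ccr4, Lag3, Batf, Il10 and Cd44) and 2 fell (Cd86 and Cxcr3), with a median change of 0.03. These shares were 18.8% and 6.25%, against 1.73% and 1.34% of all genes. The 6 rises were 3 in each of the fits without PP242 replicate 3, unstimulated replicate 1 and unstimulated replicate 3, and the falls were 0 without PP242 replicate 2 or 3 or unstimulated replicate 1 or 2, and 1 without unstimulated replicate 3. Irf4 was at 9.64, 9.66 and 9.61 with PP242, at 9.83, 9.64 and 9.80 with DMSO, and at 6.64, 6.88 and 7.16 in unstimulated cells. PP242 and DMSO arrays overlapped, and the rise with PP242 was 6.7-fold (2.74 ± 0.12, adjusted p = 3.93e-08). The difference between PP242 and DMSO was -0.12, with a 95% interval from -0.38 to 0.14 (adjusted p = 0.575). With 50 nM Torin 1, Irf4 was at 9.95, 9.97 and 9.85.

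Ccr4, a receptor for CCL17 and CCL22, was at 6.65, 7.05 and 6.98 with PP242, at 6.84, 6.67 and 6.57 with DMSO, and at 4.72, 4.59 and 4.27 in unstimulated cells, where it was dim. It rose (adjusted p = 5.08e-07) and overlapped the DMSO arrays. Ccr8, another chemokine receptor of effector Treg cells, was at 4.54, 4.46 and 4.78 with PP242, at 7.32, 7.49 and 6.84 with DMSO, and at 4.67, 4.93 and 4.41 in unstimulated cells, dim in both groups compared and called in neither direction (adjusted p = 0.911). All its PP242 arrays lay below the DMSO arrays (adjusted p = 8.2e-07). Lag3, an inhibitory receptor, rose 2.12-fold with PP242 (1.08 ± 0.14, adjusted p = 0.000541), at 6.84, 6.82 and 6.92, against 5.65, 6.14 and 5.53 in unstimulated cells.

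Cd44, one of the sort markers, was at 5.78, 6.40 and 6.16 with PP242, at 6.67, 6.43 and 6.38 with DMSO, and at 5.46, 5.61 and 5.47 in unstimulated cells. Its rise of 1.52-fold (adjusted p = 0.0397) lost its call in 7 of the 12 fits that left out 1 array (adjusted p = 0.171 without PP242 replicate 2). Cd86 fell 2.29-fold with PP242 (-1.20, adjusted p = 0.0261) and Cxcr3 1.38-fold (-0.46, adjusted p = 0.0298), with both calls lost when some arrays were left out (Cd86 in 5 fits, adjusted p = 0.12 without PP242 replicate 3, and Cxcr3 in 4 fits, adjusted p = 0.14 without unstimulated replicate 2). Il10 was dim in both groups and lost its call in 5 fits (adjusted p = 0.111 without PP242 replicate 3).

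Of 24 measured Treg identity genes, 1 rose and 2 fell (4.17% and 8.33%, against 1.73% and 1.34% of all genes), with a median of -0.14. At an unadjusted p under 0.05, 3 were higher and 8 lower. The falls numbered 7 with dim genes filtered and 7 with a trended robust prior. Socs2, a cytokine signaling suppressor, was at 7.83, 8.02 and 8.12 with PP242 and 6.74, 7.28 and 7.17 in unstimulated cells, a 1.9-fold rise (adjusted p = 0.00144). Gpr83, an orphan receptor enriched in Treg cells, was at 9.96, 9.96 and 10.04 with PP242, at 10.41, 10.38 and 10.30 with DMSO, and at 10.81, 10.89 and 10.89 in unstimulated cells. No arrays of the 3 groups overlapped, and Gpr83 fell 1.84-fold with PP242 (-0.88 ± 0.09, adjusted p = 6.58e-05), below its DMSO level by 0.38 (difference -0.38, adjusted p = 0.0084). Il2rb, the IL-2 receptor beta chain, was the other fall (-0.47, adjusted p = 0.0328), lost in 5 of the fits that left out 1 array (adjusted p = 0.137 without PP242 replicate 3).

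Among cytokine receptors and their feedback genes 3 of 34 rose (Il12rb1, Il21r and Socs2) and 9 fell (8.82% and 26.5%, against 1.73% and 1.34% of all genes). Il12rb1 was at 7.08, 7.31 and 7.20 with PP242, at 8.76, 8.16 and 8.76 with DMSO, and at 5.67, 5.92 and 5.88 in unstimulated cells, so that PP242 lay between the other groups. It rose 2.59-fold with PP242 (1.37, adjusted p = 0.000183). Il12rb2, the second chain of the IL-12 receptor, was at 4.70, 4.93 and 4.70 with PP242, at 6.30, 5.84 and 6.84 with DMSO, and at 5.82, 6.27 and 6.01 in unstimulated cells. It fell to a dim level with PP242 (adjusted p = 0.0138), below both other groups. The call was lost without PP242 replicate 3 (adjusted p = 0.0564) and without unstimulated replicate 2 (adjusted p = 0.0664).

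Il18r1, a chain of the IL-18 receptor, was at 6.61, 6.51 and 5.85 with PP242, at 5.65, 5.79 and 5.47 with DMSO, and at 7.48, 7.49 and 7.36 in unstimulated cells, a 2.17-fold fall (adjusted p = 0.00342). Stat4, which acts below the IL-12 receptor, fell 1.9-fold with PP242 (-0.92, adjusted p = 0.00301) and was 0.76 higher than with DMSO (adjusted p = 0.00281). The remaining falls, in Il10ra, Cish, Socs3, Il2rb, Il4ra and Ifngr1, ran from -0.85 to -0.44. The count of 9 was 5, 4, 5 and 5 without PP242 replicate 2, PP242 replicate 3, unstimulated replicate 1 and unstimulated replicate 2. Of 35 cytokines and chemokines 3 rose (Il2, Csf1 and Il10) and 3 fell (Tnfsf8, Lta and Il1a), with 22 of the 35 dim in both groups, Il2, Il10 and Il1a among them. Each direction held 8.57% of the list, against 1.73% higher and 1.34% lower of all genes. Without unstimulated replicate 3 none of the 3 rises was called (adjusted p = 0.0536 for Il2, 0.0568 for Csf1 and 0.078 for Il10). Il10 and Il1a lost their calls in 5 and 4 of the fits that left out 1 array, with adjusted p up to 0.111 for Il10 without PP242 replicate 3 and 0.0959 for Il1a without unstimulated replicate 3. Lta, lymphotoxin alpha, was at 6.40, 6.31 and 6.48 with PP242, at 7.25, 7.13 and 7.16 with DMSO, and at 6.98, 7.34 and 7.30 in unstimulated cells. Its PP242 arrays lay below both other groups (-0.81 against unstimulated, adjusted p = 0.00176, and -0.79 against DMSO, adjusted p = 0.00049).

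NF-kappaB genes were mixed, with 2 of 23 rising and 4 falling (8.7% and 17.4%, against 1.73% and 1.34% of all genes, median -0.15). Malt1, a paracaspase that activates NF-kappaB, was at 10.11, 10.01 and 9.86 with PP242, at 9.57, 9.62 and 9.81 with DMSO, and at 8.59, 8.66 and 8.56 in unstimulated cells. All PP242 arrays were above the DMSO arrays, and Malt1 rose 2.63-fold over unstimulated cells (1.39 ± 0.10, adjusted p = 2.76e-06). Nfkbid, an atypical inhibitor of NF-kappaB, rose 1.73-fold (adjusted p = 0.00145). The ubiquitin-editing enzyme Tnfaip3 (A20) fell 1.84-fold (-0.88, adjusted p = 0.00202), and Nfkb2 fell 1.56-fold (-0.64, adjusted p = 0.0042). The other 2 falls, Nfkbia (-0.43) and Birc3 (-0.46), lost their calls in 4 and 5 of the fits that left out 1 array, with adjusted p of 0.0695 for Nfkbia without unstimulated replicate 3 and 0.0916 for Birc3 without PP242 replicate 3.

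**Figure D3:**
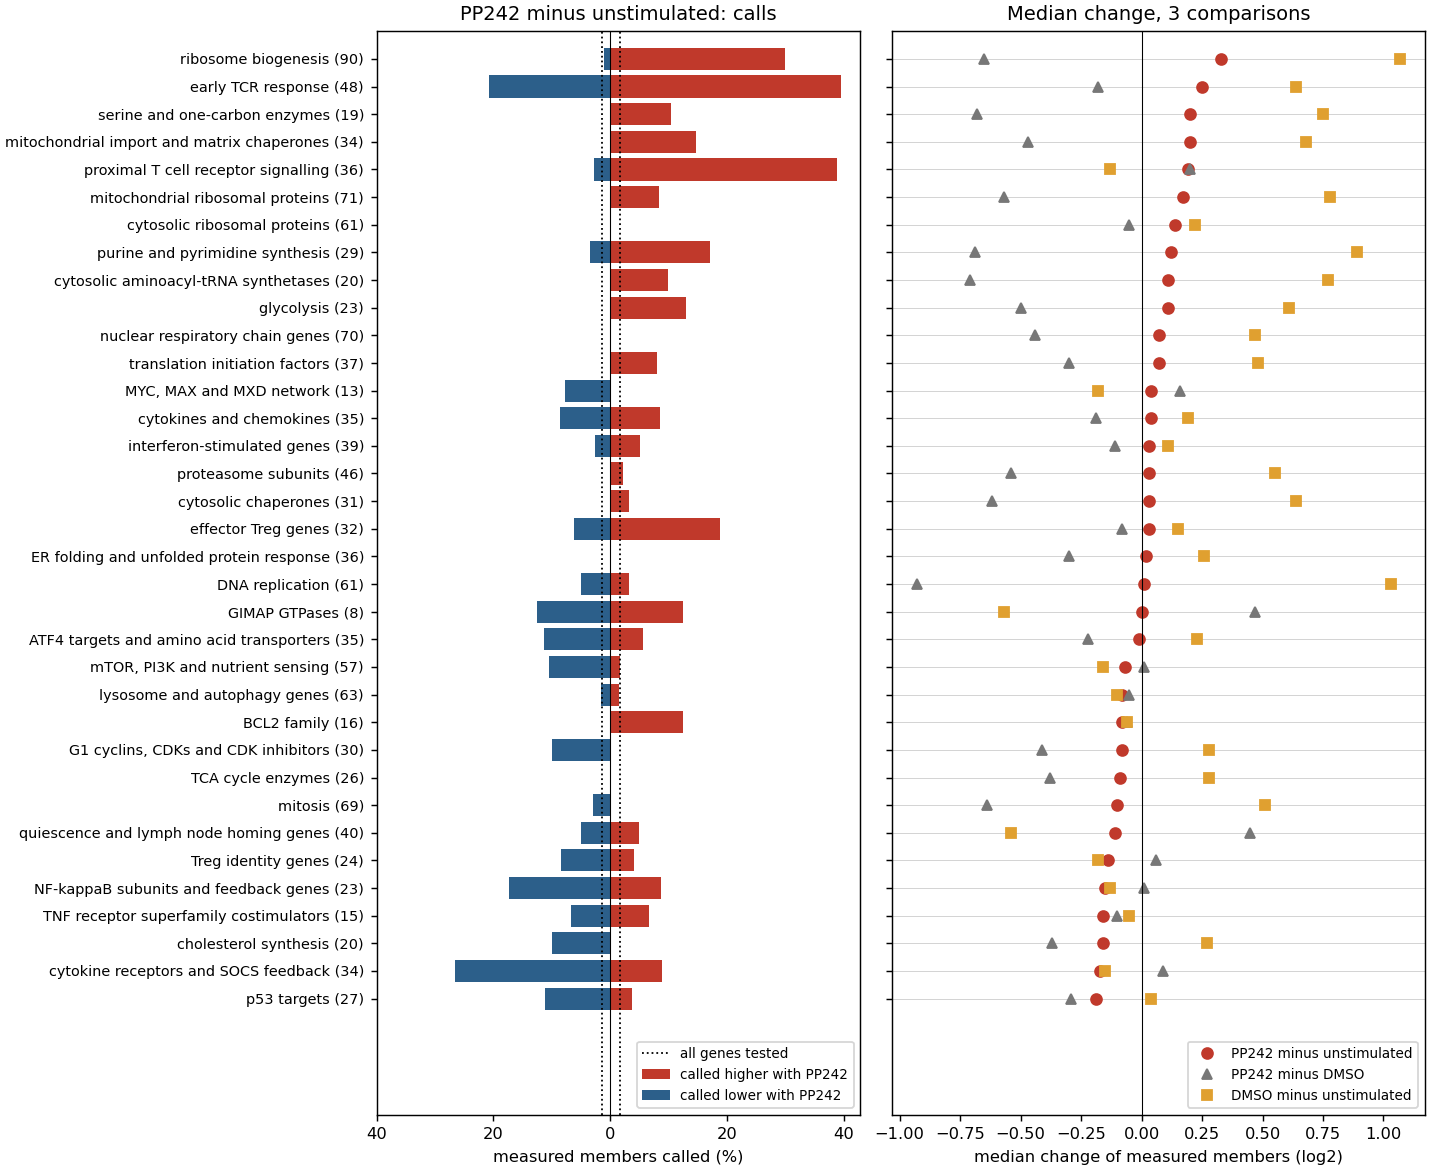
Left, share of the measured members (number in parentheses) of each gene list called higher (red) or lower (blue) with PP242 than in unstimulated cells (% of members), with dotted lines at the shares over all genes, 1.73% and 1.34%. Right, median change of the members (log2) in PP242 minus unstimulated (red circles), PP242 minus DMSO (grey triangles) and DMSO minus unstimulated (orange squares), where DNA replication has medians of 0.01, -0.93 and 1.03.

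Ribosome biogenesis was the growth program with the most called rises. Of 90 measured genes 27 rose and 1, the kinase Riok1, fell (30% and 1.11%, against 1.73% and 1.34% of all genes). The median change was 0.33, and the change was positive in 86. In vehicle-treated cells 85 rose (median 1.07), and PP242 lay below DMSO in 76 called genes (median -0.65). Utp20, a component of the small subunit processome, was at 7.14, 7.0 and 7.11 with PP242, at 8.02, 8.06 and 7.74 with DMSO, and at 5.70, 5.75 and 6.10 in unstimulated cells. The 3 groups did not overlap, and Utp20 rose 2.35-fold with PP242 (1.23 ± 0.13, adjusted p = 7.93e-05), 0.86 below DMSO (difference -0.86, adjusted p = 0.00036). Polr1b, a subunit of RNA polymerase I, rose 1.93-fold (0.95, adjusted p = 0.00301), Ubtf, which activates rRNA gene transcription, 1.84-fold (0.88, adjusted p = 0.000374), Sdad1 2.08-fold (1.06, adjusted p = 0.00217) and the small subunit export factor Ltv1 1.82-fold (0.87, adjusted p = 0.00245). The count of 27 was 12 without unstimulated replicate 1 and 14 without PP242 replicate 2. The fall of Riok1 (-0.58, adjusted p = 0.0244) was lost in 4 such fits (adjusted p = 0.117 without unstimulated replicate 3).

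Promoter windows are given for Utp20, Sdad1 and Ltv1, the 3 of 24 called ribosome biogenesis genes with a RefSeq entry that held the E-box CACGTG, to which MYC and its partner MAX bind. The motif, a palindrome and so the same on both strands, was found for 12.5% of the 24 and for 9.19% of the 16990 genes with an entry, near the background. Windows run 5′ to 3′ on the minus strand of GRCm38.p6 with the E-box in capitals, for Utp20 at chr10:88826765-88827064, Sdad1 at chr5:92309975-92310274 and Ltv1 at chr10:13193088-13193387.
Utp20: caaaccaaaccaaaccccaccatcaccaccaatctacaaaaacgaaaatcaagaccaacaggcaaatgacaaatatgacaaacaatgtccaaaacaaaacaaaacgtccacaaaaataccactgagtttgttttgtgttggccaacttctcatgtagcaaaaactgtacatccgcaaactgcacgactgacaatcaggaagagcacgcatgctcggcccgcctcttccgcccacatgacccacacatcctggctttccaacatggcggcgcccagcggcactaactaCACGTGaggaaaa
Sdad1: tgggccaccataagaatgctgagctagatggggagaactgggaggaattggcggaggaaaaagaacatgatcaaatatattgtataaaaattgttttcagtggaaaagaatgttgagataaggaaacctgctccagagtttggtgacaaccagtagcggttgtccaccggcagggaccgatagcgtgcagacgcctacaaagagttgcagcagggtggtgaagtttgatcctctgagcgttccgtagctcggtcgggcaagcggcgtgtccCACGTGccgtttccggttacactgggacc
Ltv1: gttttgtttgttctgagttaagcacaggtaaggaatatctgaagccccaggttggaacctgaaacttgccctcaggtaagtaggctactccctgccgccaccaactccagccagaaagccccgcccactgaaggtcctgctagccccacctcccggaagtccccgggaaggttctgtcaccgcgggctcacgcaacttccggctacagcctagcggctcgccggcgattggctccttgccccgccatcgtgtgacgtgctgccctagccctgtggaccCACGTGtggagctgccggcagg

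**Figure D4:**
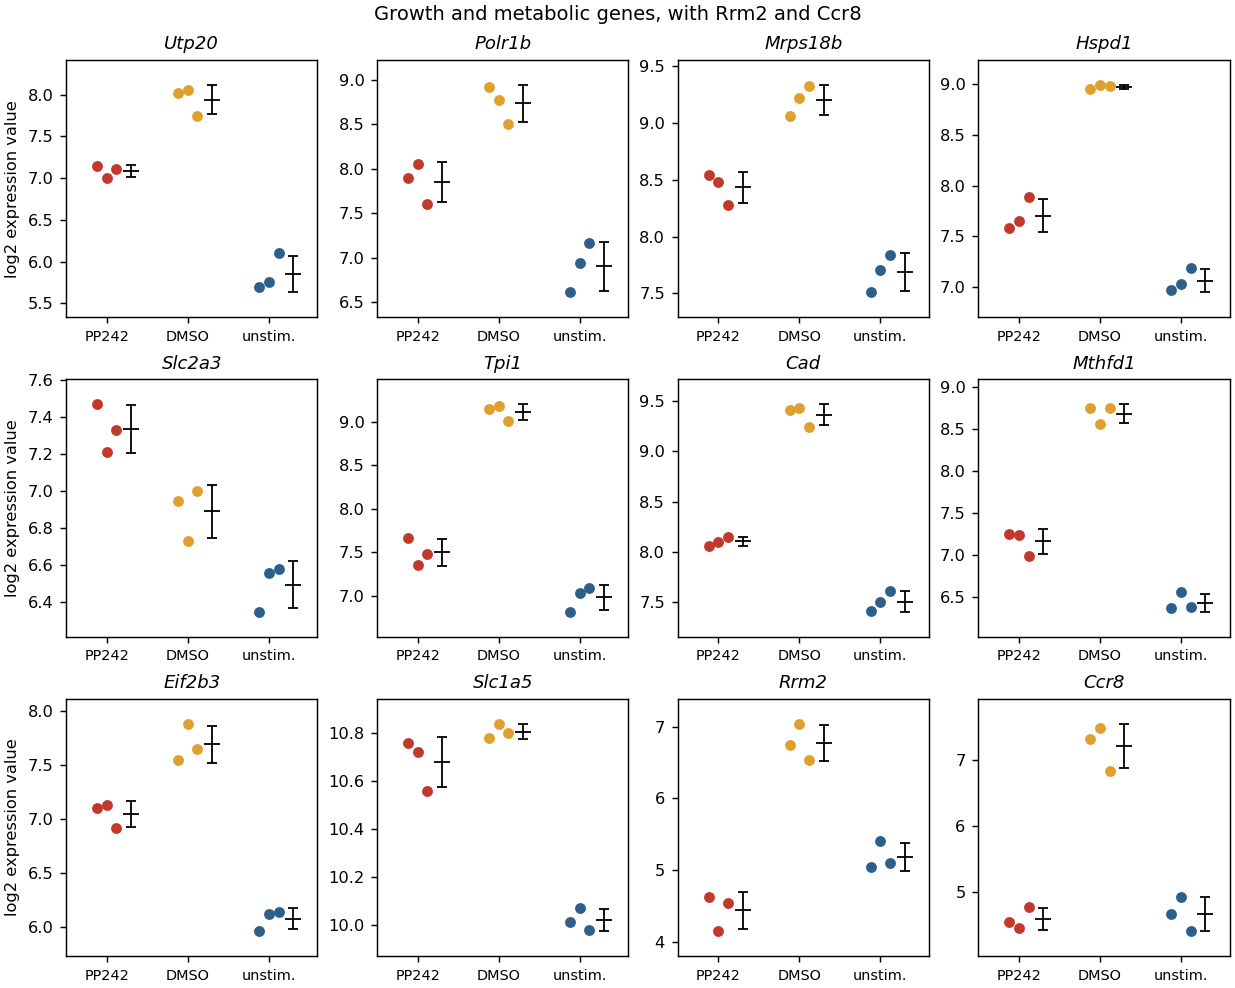
Log2 expression value of 12 growth, metabolic and effector genes on each array (points) of stimulated cells with PP242 (red), stimulated cells with DMSO (orange) and unstimulated cells (blue, unstim.), with the mean ± SD of the 3 arrays in black. For most genes the PP242 points lie between the other groups, while with PP242 Rrm2 lies below and Ccr8 overlaps the unstimulated points and Slc2a3 lies above the DMSO points.

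Other biosynthetic lists had fewer called rises with PP242 than with DMSO, as all genes did (1.73% against 11.8%). Of 71 mitochondrial ribosomal proteins 6 rose (8.45%, against 1.73% of all genes, median 0.17), against 59 with DMSO (median 0.78). Mrps18b was at 8.54, 8.48 and 8.28 with PP242, at 9.06, 9.22 and 9.32 with DMSO, and at 7.51, 7.71 and 7.84 in unstimulated cells. The 3 groups did not overlap (rise of 1.68-fold with PP242, adjusted p = 0.00332). The count of 6 was 2, 2, 2 and 3 without PP242 replicate 2, PP242 replicate 3, unstimulated replicate 1 and unstimulated replicate 2. Mrps28 was at 6.47, 6.65 and 7.01 with PP242 and 5.56, 6.39 and 6.24 in unstimulated cells, a difference of 0.65 that did not pass the test (adjusted p = 0.103). Of 34 mitochondrial import and chaperone genes 5 rose (Timm8a1, Timm9, Hspd1, Timm10 and Hspe1), 14.7% against 1.73% of all genes (median 0.20). Of these 5, 2 were called in the fit without PP242 replicate 3, 2 without unstimulated replicate 1 and 3 without unstimulated replicate 2. Without unstimulated replicate 3 Timm10 (adjusted p = 0.065) and Hspe1 (adjusted p = 0.0885) lost their calls. The matrix chaperonin Hspd1 was at 7.58, 7.65 and 7.89 with PP242, at 8.95, 8.99 and 8.98 with DMSO, and at 6.97, 7.03 and 7.19 in unstimulated cells. Its rise of 1.56-fold (adjusted p = 0.00278) held in each fit that left out 1 array. No gene was called by limma among 70 nuclear genes of the respiratory chain (median 0.07, with 5 higher and 0 lower at an unadjusted p under 0.05, and 48 called higher with DMSO), 26 TCA cycle enzymes (median -0.09, 2 higher and 5 lower unadjusted) and 61 cytosolic ribosomal proteins (median 0.14, 8 higher and 0 lower unadjusted).

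In glycolysis 3 of 23 genes rose (13%, against 1.73% of all genes, median 0.11), and 17 rose with DMSO (median 0.61). Slc2a3, the glucose transporter GLUT3, was at 7.47, 7.21 and 7.33 with PP242, at 6.95, 6.73 and 7.0 with DMSO, and at 6.35, 6.56 and 6.58 in unstimulated cells. Its PP242 arrays were the highest of the 3 groups (1.79-fold over unstimulated, adjusted p = 0.00118, and 0.44 over DMSO, adjusted p = 0.0182). The enzymes Tpi1 (0.51, adjusted p = 0.0198) and Pgk1 (0.47, adjusted p = 0.0296) also rose, and their differences from DMSO were -1.61 and -1.0. Both calls were lost in some fits that left out 1 array (Tpi1 in 4, adjusted p = 0.0904 without unstimulated replicate 1, and Pgk1 in 5, adjusted p = 0.125 without PP242 replicate 3).

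Of 29 genes listed for purine and pyrimidine synthesis 5 rose (Dctd, Gart, Cad, Umps and the salvage enzyme Aprt) and Rrm2 fell. The median was 0.12, and with DMSO 23 rose (median 0.89). The shares with PP242 were 17.2% higher and 3.45% lower, against 1.73% and 1.34% of all genes. Cad, which starts pyrimidine synthesis, was at 8.06, 8.10 and 8.15 with PP242, at 9.41, 9.43 and 9.24 with DMSO, and at 7.41, 7.5 and 7.61 in unstimulated cells. The groups did not overlap, and Cad rose 1.51-fold with PP242 (0.60, adjusted p = 0.00562). Rrm2, a subunit of ribonucleotide reductase, was at 4.63, 4.15 and 4.54 with PP242, at 6.74, 7.04 and 6.53 with DMSO, and at 5.04, 5.41 and 5.10 in unstimulated cells. It fell to a dim level (adjusted p = 0.0235), a call lost in 4 fits that left out 1 array (adjusted p = 0.109 without unstimulated replicate 2). The rises of Dctd, Umps and Aprt were lost in 4, 8 and 4 such fits, with highest adjusted p of 0.0652 without PP242 replicate 2 and, for Umps and Aprt, 0.169 and 0.14 without unstimulated replicate 1. The rise of Gart (0.83) was 0.16 (adjusted p = 0.786) when the median over its clusters was used.

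Of 19 serine and one-carbon enzymes Mthfd1 and Mthfd1l rose (10.5%, against 1.73% of all genes). Mthfd1 was at 7.25, 7.24 and 6.99 with PP242, at 8.75, 8.56 and 8.75 with DMSO, and at 6.36, 6.55 and 6.37 in unstimulated cells, a 1.66-fold rise with PP242 (adjusted p = 0.00171). Mthfd1l (0.55, adjusted p = 0.0253) lost its call in 4 fits that left out 1 array (adjusted p = 0.113 without unstimulated replicate 1). Among 37 initiation factors Eif2b3, Eif1b and Eif3i rose (8.11%, against 1.73% of all genes), led by Eif2b3 (1.96-fold, adjusted p = 0.000221). Eif1b lost its call in 8 such fits (adjusted p = 0.17 without unstimulated replicate 2). The cytosolic aminoacyl-tRNA synthetase list had 2 rises of 20 (Eef1e1 and Rars, 10%, against 1.73% of all genes), and 19 rises with DMSO. The calls of Eef1e1 and Rars were lost in 3 and 5 fits (adjusted p = 0.0989 for Eef1e1 without PP242 replicate 3 and 0.109 for Rars without unstimulated replicate 1). Of 46 proteasome genes 1 rose (2.17%, near the 1.73% of all genes), against 34 with DMSO. It was the assembly chaperone Psmg4 (1.83-fold, adjusted p = 0.00463).

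Amino acid transport and ATF4 target genes split, with 2 rises and 4 falls of 35 (median -0.01). These were 5.71% and 11.4%, against 1.73% and 1.34% of all genes. Slc1a5, a glutamine transporter, was at 10.76, 10.72 and 10.56 with PP242, at 10.78, 10.84 and 10.80 with DMSO, and at 10.01, 10.07 and 9.98 in unstimulated cells. It rose 1.58-fold (adjusted p = 0.000906), and its difference from DMSO was -0.12 (adjusted p = 0.426). Slc38a1, another glutamine transporter, rose 1.68-fold (0.75, adjusted p = 0.00214). The falls were Sesn2 (-0.93), which inhibits mTORC1 when leucine is low, the proline synthesis enzyme Aldh18a1 (-0.84, adjusted p = 0.00463), Slc7a3 (-0.75) and Cebpg (-0.47). Without 1 array the calls of Sesn2, Slc7a3 and Cebpg were lost in 2, 2 and 5 fits, with highest adjusted p of 0.0653 and 0.065 without unstimulated replicate 3, and 0.132 without PP242 replicate 2.

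Proliferation genes had medians near 0. Of 61 DNA replication genes 2 rose (Pole2 and Wdhd1) and 3 fell (Rrm2, Chaf1b and Top2a), with a median of 0.01, against 50 rises with DMSO (median 1.03). The shares with PP242 were 3.28% higher and 4.92% lower, against 1.73% and 1.34% of all genes. Calls of all 5 were lost in 3 to 5 of the fits that left out 1 array, with highest adjusted p of 0.0786 for Pole2 and 0.109 for Rrm2 without unstimulated replicate 2, 0.121 for Wdhd1 and 0.139 for Chaf1b without unstimulated replicate 3, and 0.114 for Top2a without PP242 replicate 2. Mcm5, a subunit of the replicative helicase named after its values were seen, was at 7.70, 8.13 and 7.96 with PP242, at 10.03, 10.10 and 9.95 with DMSO, and at 7.59, 7.84 and 7.71 in unstimulated cells. Its PP242 and unstimulated arrays overlapped (difference 0.22, adjusted p = 0.445), far below DMSO. Of 69 mitosis genes none rose and 2 fell (Ndc80 and Prc1, 2.9% against 1.34% of all genes, median -0.10). In this list 34 were dim in both groups, and 38 rose with DMSO. At an unadjusted p under 0.05 in limma 0 were higher and 10 lower. The count of 2 falls was 0 without PP242 replicate 3, unstimulated replicate 2 or unstimulated replicate 3. It was 1 without PP242 replicate 2, unstimulated replicate 1, DMSO replicate 3 or Torin 1 replicate 1. Without PP242 replicate 2 both Ndc80 and Prc1 lost their calls, and the 1 fall was another member. Prc1, dim in both groups, lost its call in 7 of these fits (adjusted p = 0.172 without unstimulated replicate 2). Ndc80, an outer kinetochore protein, was at 6.36, 6.04 and 6.06 with PP242 and at 6.78, 7.17 and 7.04 in unstimulated cells, a 1.79-fold fall (adjusted p = 0.018) lost in 4 fits that left out 1 array (adjusted p = 0.0828 without unstimulated replicate 2).

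The list of G1 cyclins, CDKs and CDK inhibitors also held Myb and Rbl2. Of its 30 measured genes none rose (1 at an unadjusted p under 0.05 in limma) and 3 fell (10%, against 1.34% of all genes). Cdkn1a, the CDK inhibitor p21, was at 7.10, 7.08 and 7.04 with PP242, at 8.32, 8.20 and 8.41 with DMSO, and at 8.06, 8.20 and 8.15 in unstimulated cells. The PP242 arrays lay below both other groups, and Cdkn1a fell 2.09-fold relative to unstimulated cells (-1.06 ± 0.10, adjusted p = 2.88e-05). Myb, a transcription factor of lymphocyte progenitors, was at 8.62, 8.63 and 8.46 with PP242, at 9.0, 8.97 and 8.78 with DMSO, and at 9.52, 9.62 and 9.42 in unstimulated cells, a 1.93-fold fall (adjusted p = 0.000256), or a change of -0.62 with the median over its clusters. Rbl2 (-0.41, adjusted p = 0.0372) lost its call in 6 fits that left out 1 array (adjusted p = 0.138 without PP242 replicate 3). In the MYC, MAX and MXD network the MYC antagonist Mxd1 was the only call of 13 measured genes (7.69%, against 1.34% lower of all genes). Mxd1 averaged 9.24 ± 0.01 with PP242, 9.48 ± 0.06 with DMSO and 10.05 ± 0.05 in unstimulated cells (SD, n = 3 each), with no overlap of arrays (1.75-fold fall, adjusted p = 0.000283). Myc, named after its values were seen, was at 10.18, 10.09 and 9.90 with PP242, 10.55, 10.52 and 10.55 with DMSO, and 9.5, 9.64 and 9.81 in unstimulated cells, and its difference of 0.41 missed the threshold (adjusted p = 0.0578).

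Few quiescence and lymph node homing genes were called against unstimulated cells. Of 40 measured 2 rose and 2 fell with PP242 (5% each, against 1.73% and 1.34% of all genes, median -0.11). At an unadjusted p under 0.05 in limma 3 were higher and 10 lower, and with array weights 5 falls were called. With DMSO 25 fell (median -0.54), and 24 were higher with PP242 than with DMSO (median 0.45). Of all genes 12.1% fell with DMSO, and 7.38% were higher with PP242 than with DMSO. The rises were the inhibitors of E proteins Id3 (1.78-fold, adjusted p = 0.000578) and Id2 (1.64-fold, adjusted p = 0.01). Id2 lost its call without unstimulated replicate 1 (adjusted p = 0.0504). The falls of Itga6 (-0.44) and Rbl2 (-0.41) each lost their call in 6 fits (adjusted p = 0.138 for both without PP242 replicate 3). S1pr1, which guides lymphocyte egress and was named after its values were seen, was at 10.66, 10.57 and 10.39 with PP242, at 9.51, 9.47 and 9.31 with DMSO, and at 10.63, 10.77 and 10.61 in unstimulated cells. PP242 and unstimulated arrays overlapped (difference -0.13, adjusted p = 0.673). Of 8 GIMAP GTPases, which support T cell survival, 7 fell with DMSO, where 12.1% of all genes fell. With PP242 Gimap5 rose (0.46, adjusted p = 0.0306) and Gimap3 fell (-0.41, adjusted p = 0.0497). Each was 12.5% of the list, against 1.73% higher and 1.34% lower of all genes. The call of Gimap5 was lost in 5 fits (adjusted p = 0.117 without unstimulated replicate 1) and that of Gimap3 in all 12 (adjusted p = 0.196 without PP242 replicate 3).

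The falls with the largest changes outside these lists included Ctla2a, an inhibitor of cathepsin L, at 5.82, 7.19 and 7.17 with PP242, 6.64, 6.89 and 6.20 with DMSO, and 8.19, 8.48 and 8.72 in unstimulated cells. PP242 replicate 1 was the lowest of all, and Ctla2a fell 3.33-fold (-1.74 ± 0.32, adjusted p = 0.00872), a call lost with the ordinary linear model (adjusted p = 0.0839). Plagl1, a zinc finger factor, was at 7.03, 6.78 and 6.67 with PP242, at 7.39, 7.19 and 7.14 with DMSO, and at 8.29, 8.48 and 8.58 in unstimulated cells, a 3.07-fold fall (adjusted p = 4.49e-06), or a change of -0.86 with the median over its clusters. Gadd45b, a stress and MAPK scaffold protein, was at 7.56, 7.84 and 7.51 with PP242, at 8.97, 9.01 and 8.81 with DMSO, and at 9.26, 9.45 and 9.22 in unstimulated cells. It fell 3.19-fold with PP242 (-1.67 ± 0.12, adjusted p = 2.09e-06), below DMSO by 1.29 (difference -1.29, adjusted p = 8.2e-06).

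**Figure D5:**
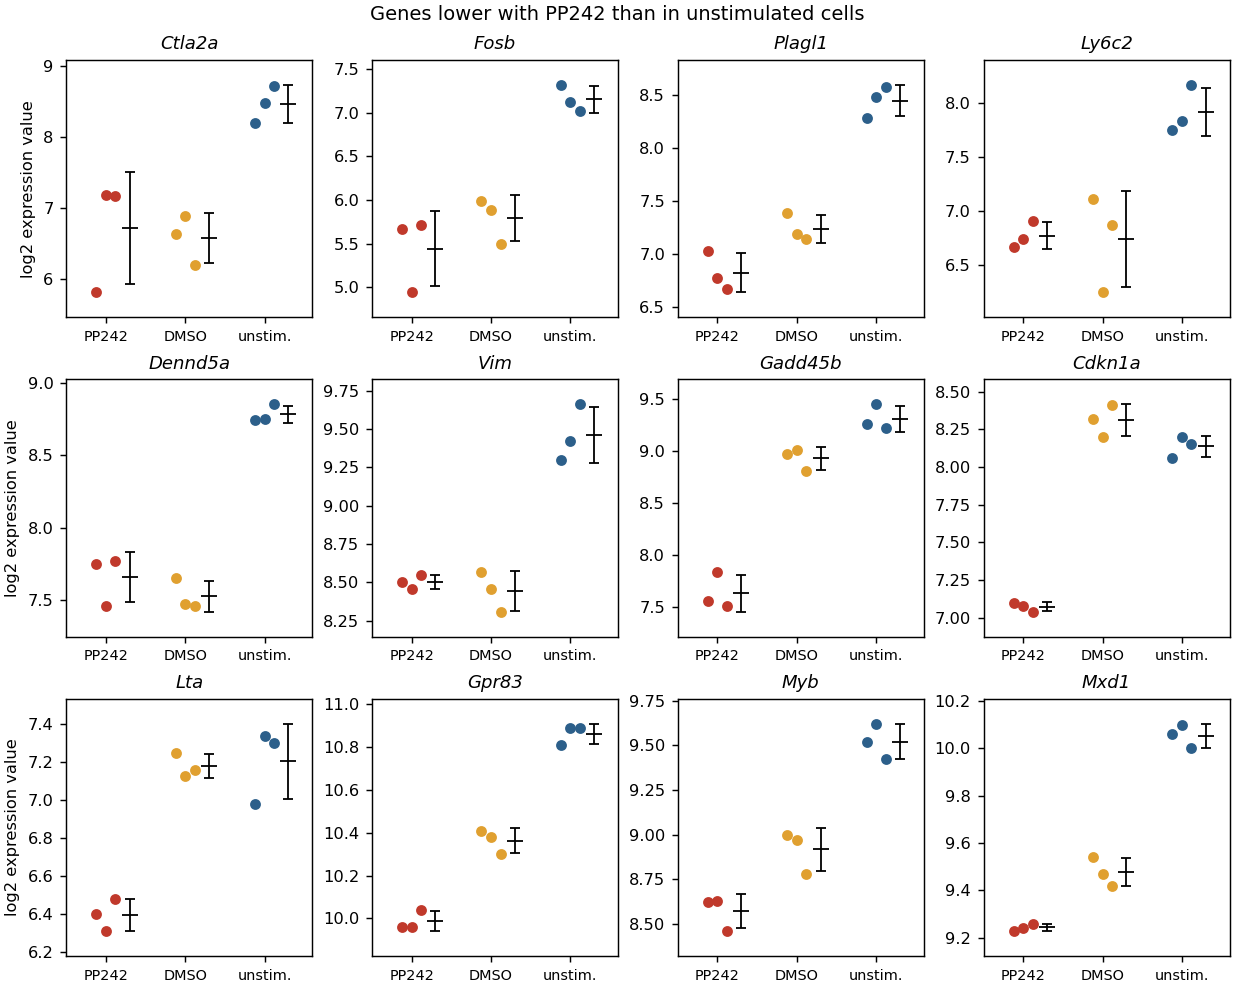
Log2 expression value of 12 genes on each array (points) of stimulated cells with PP242 (red), stimulated cells with DMSO (orange) and unstimulated cells (blue, unstim.), with the mean ± SD of the 3 arrays in black. All PP242 points lie below the unstimulated points, and those of Plagl1, Gadd45b, Cdkn1a, Lta, Gpr83, Myb and Mxd1 also lie below the DMSO points.

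For some falls the 95% interval of the difference between PP242 and DMSO lay within 0.5 on either side of 0. Dennd5a, a Rab regulator, was at 7.75, 7.46 and 7.77 with PP242, at 7.65, 7.47 and 7.46 with DMSO, and at 8.74, 8.75 and 8.85 in unstimulated cells. It fell 2.18-fold with PP242 (-1.12, adjusted p = 4.2e-05) and differed from DMSO by 0.13 (interval -0.10 to 0.36). Vim, the intermediate filament vimentin, fell 1.95-fold (-0.96, adjusted p = 0.000225), with a difference from DMSO of 0.06 (interval -0.18 to 0.29). Also in this group were Ly6c2 (2.22-fold), Slc4a8 (2.2-fold), Elovl6 (2.14-fold), Atp1b1 (2.09-fold), Mpzl1 (2.09-fold) and Adam19 (2.02-fold). With the median over clusters the changes were -0.494 for Vim and -0.545 for Adam19. The rises of the same kind were Irf4, Egr2, Sla, Cd69 and Dusp2, given above, with Sh3bp2, an adaptor of immune receptor signaling (4.97-fold), Srfbp1 (2.5-fold) and Pitpnm2 (2.47-fold). Srfbp1 had a change of 0.83 with the median over clusters.

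A few genes rose with PP242 beyond both other groups. Prg4, encoding lubricin, was at 6.99, 6.77 and 6.81 with PP242, at 5.67, 5.70 and 5.61 with DMSO, and at 5.69, 5.54 and 6.18 in unstimulated cells. Only the PP242 arrays were high (2.07-fold over unstimulated, adjusted p = 0.000944, and 1.19 over DMSO, adjusted p = 7.9e-05). Arhgap15, a Rac GTPase-activating protein, was at 10.65, 10.29 and 10.16 with PP242, at 9.30, 9.34 and 9.36 with DMSO, and at 9.61, 9.52 and 9.5 in unstimulated cells (1.77-fold, adjusted p = 0.00138, and 1.03 over DMSO, adjusted p = 5.5e-05). Phxr4 rose 2.43-fold (1.28, adjusted p = 0.000676). Pgpep1l (0.89) and Cecr2 (0.85) lost their calls in 1 and 3 fits that left out 1 array (adjusted p = 0.0626 and 0.0989, both without unstimulated replicate 1). Gpr155 (0.96, adjusted p = 0.00317) had a change of -0.05 when the median over its clusters was used. The pro-apoptotic Bcl2l11 (BIM) was at 8.56, 8.45 and 8.51 with PP242, at 7.5, 7.57 and 7.63 with DMSO, and at 7.94, 8.10 and 8.13 in unstimulated cells, with a rise of 0.45 (adjusted p = 0.0286) that was lost in 6 such fits (adjusted p = 0.119 without unstimulated replicate 1).

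Below both other groups with PP242, beside Gadd45b, Il12rb2, Cdkn1a and Lta, were Hsd17b7, a cholesterol synthesis enzyme that was dim with PP242 (adjusted p = 0.0296), and the ceramide synthase Cers6 (-0.83, adjusted p = 0.0137). Hsd17b7 lost its call in 5 fits that left out 1 array (adjusted p = 0.131 without PP242 replicate 2), and Cers6 in 2 (adjusted p = 0.0531 without unstimulated replicate 1 and 0.0687 without unstimulated replicate 3). Of 20 cholesterol synthesis genes Hsd17b7 and Mvd fell (10%, against 1.34% of all genes) and none rose (0 at an unadjusted p under 0.05 in limma). Mvd (-0.50) lost its call in 3 fits (adjusted p = 0.0689 without PP242 replicate 2). Of 57 genes of mTOR, PI3K and nutrient sensing 1 rose and 6 fell (1.75% and 10.5%, against 1.73% and 1.34% of all genes, median -0.07). The share of rises was thus near that of all genes. Pik3cd, the leukocyte catalytic subunit of PI3K, was at 10.42, 10.34 and 10.27 with PP242, at 10.01, 10.07 and 10.08 with DMSO, and at 9.80, 9.86 and 9.90 in unstimulated cells, a 1.4-fold rise (adjusted p = 0.00802). Rragd, a Rag GTPase that recruits mTORC1 to lysosomes, fell 1.64-fold (-0.72, adjusted p = 0.00642). The count of 6 falls was 2 without PP242 replicate 2 and 2 without unstimulated replicate 3.

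Interferon-stimulated genes had 2 rises and 1 fall of 39 (5.13% and 2.56%, against 1.73% and 1.34% of all genes, median 0.03). Iigp1, an interferon-inducible GTPase, was at 9.81, 9.02 and 9.18 with PP242, at 10.21, 9.84 and 10.28 with DMSO, and at 7.92, 8.25 and 8.13 in unstimulated cells. PP242 replicate 1 was the highest of its group, as it was for Irgm1, at 8.09, 7.25 and 7.39 with PP242 and 6.25, 6.24 and 6.65 in unstimulated cells. The rises were 2.35-fold for Iigp1 (adjusted p = 0.00725) and 2.29-fold for Irgm1 (adjusted p = 0.00832), and neither was called with the ordinary linear model (adjusted p = 0.0671 and 0.0719). Irf7 fell (-0.52, adjusted p = 0.0259), a call lost in 4 fits that left out 1 array (adjusted p = 0.122 without unstimulated replicate 3). Of 27 p53 targets 1 rose and 3 fell (3.7% and 11.1%, against 1.73% and 1.34% of all genes, median -0.19). The polo-like kinase Plk3 rose 2.46-fold (1.30, adjusted p = 0.000132), at 7.54, 7.69 and 8.01 with PP242 against 6.15, 6.6 and 6.59 in unstimulated cells, while Cdkn1a, Sesn2 and Fas fell.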

How the data were processed

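RNA of sorted cTreg cells (500 pg per sample, WT Pico amplification) was hybridised to 12 mouse gene arrays, 3 per group. The deposited log2 expression values were made by the authors with RMA (background correction, quantile normalization and probe summary), and the submitters' notes name Partek 6.6. They ran from 1.48 to 13.3 with array medians from 4.95 to 5.08. The build behind the clusters is not given in the sources used here. The number of arrays limits the precision. The array correlations were 0.9786 to 0.9826 within PP242, 0.9864 to 0.9873 within unstimulated cells and 0.9781 to 0.9845 between them.

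Of 41345 transcript clusters 23521 carried 1 gene symbol in the platform annotation, 1820 several and 16004 none, and only the clusters with 1 symbol were used. Of the 22180 genes, 1082 had more than 1 cluster, and 21994 had an identifier in RefSeq GRCm38.p6. All 12 arrays were fitted as 4 group means with limma 3.58.1 (lmFit and eBayes, R 4.3.3), with Benjamini-Hochberg adjustment over all genes and calls at an adjusted p under 0.05. The study's methods name an ANOVA, and the ordinary linear model was run as an alternative, beside other normalization between arrays, a filter on dim genes, the median over clusters, all clusters, a trended robust prior, array weights, 2 groups only, the replicate number as a block, a stricter threshold and each array left out. The fit was tested on simulated data. A fold is given only where neither group mean was dim.

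The members and the 35 gene lists and 7 marker lists (1377 of 1504 entries measured) were chosen with earlier results of these data known. Named genes are the 12 largest called rises and falls whose PP242 and unstimulated arrays do not overlap, up to 4 called members per list with the largest changes and members that fill a count of 5 or fewer, the 6 each way with PP242 arrays beyond both other groups and called against both, the 8 each way among called genes whose 95% interval of PP242 minus DMSO lay within 0.5, genes the study names for these arrays, and sort and lineage genes. Predicted and RIKEN genes, pseudogenes, receptor segments and small RNAs were passed over. Genes with little to add were left out. Further list members that were named, beside those marked in the text (such as Jun, Dusp4, Stat4, Zfp36, Ltv1, Zap70 and Cd28), were chosen after their values were seen. Comparisons that share arrays are set side by side only. Promoters are from RefSeq (GRCm38.p6), matched by symbol for 16990 genes.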

Additional observations from a re-analysis of the deposited data

How the results depend on the processing

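The 384 rises ranged from 220 to 370 when 1 array was left out, and were 235 with all transcript clusters in the fit and 181 at a threshold of 0.01. They numbered 489 with dim genes filtered and 475 with a trended robust prior. The 297 falls ranged from 121 to 293 when 1 array was left out. They were 135 with all clusters, 191 with only the 2 groups compared (fewer samples) and 87 at 0.01. Filtering dim genes gave 409 falls and the trended robust prior 410. The counts at 2-fold stayed within 1.5 times of 61 and 20 under all 23 alternatives. Of 133 named genes with a call, 71 kept it under all 23. Gpr155 turned to -0.051 (adjusted p = 0.922) with the median over its clusters, the only reversal, and the cause was not tested. Of the 133, 41 lost the call with all clusters in the fit, 41 with the ordinary linear model, 33 with only the 2 groups compared, 10 with the replicate block, 8 with centred arrays, 2 with quantile normalization and 2 with the median over clusters, which moved 9 changes by over 1.5 times. Foxp3 passed the threshold with dim genes filtered (adjusted p = 0.0397), a trended robust prior (0.0014) and the ordinary linear model (0.0148). Of 70 list counts 44 moved by over 1.5 times under at least 1 alternative. Arrays of the same replicate number showed little shared deviation (correlations -0.01, 0.03 and 0.048). With 3 arrays per group this cannot show whether they were paired. With the replicate block 343 genes rose and 241 fell, and Mrps28 passed the threshold (0.65, adjusted p = 0.0463). With 3 arrays per group, small changes and dim genes are measured least firmly.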
